A study of Mus musculus with 16 samples.

Results

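The regions described here carried H3K27Ac in the region list of one sex only and H3K27Me3 in the list of the opposite sex only, in mouse embryonic stem (ES) cells. They were taken from chr1 to chr19, and the 2 directions were kept apart. In the first, 132 H3K27Ac regions of the female (BCF) list overlapped no H3K27Ac of the male (BCM) list by as much as 1 bp, overlapped H3K27Me3 of the BCM list and overlapped none of their own list. They were drawn from 5217 H3K27Ac regions found in the BCF list only, out of 27785 in that list. In the second, 172 H3K27Ac regions of the BCM list met the mirror-image rule, out of 2659 found in the BCM list only and 25301 in all. The members were therefore selected on the same H3K27Ac and H3K27Me3 lists whose contrast they show, so that contrast is a description and not a finding, and it carries no test.

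The study profiled H3K27Ac, H3K27Me3 and H3K4Me1 by ChIP-seq in XY (male) and XX (female) ES cells to ask whether chromatin differed between the sexes. The 16 libraries came from 4 lines: BCM1 and BCM2 were the male lines, BCF3 and BCF4 the female lines, and input and IgG libraries served as controls. All lines were hybrids of C57BL/6 and CAST/EiJ derived from separate blastocysts. They were grown in serum with leukemia inhibitory factor on inactivated feeder fibroblasts of both sexes, used at passages 7 to 10 by their labels, and depleted of feeders before harvest. Each sex and mark had 2 lines but only 1 deposited list of genomic intervals, without scores or read depth, so there was no replicate error and no test between the sexes could be made. How a list was called, and whether it joined both lines, is not given in the sources used here. Shares are given with exact binomial (Clopper-Pearson) 95% intervals, which cover counting error over regions only.

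Acetylation of lysine 27 on histone H3 marks active promoters and enhancers, and trimethylation of the same residue is laid down by Polycomb repressive complex 2 at silenced or poised genes. A single H3 tail cannot carry both, but a cell population can, because alleles and cells differ. H3K4Me1 marks enhancers, active or primed, and the flanks of promoters, and can accompany either of the other 2 marks.

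The H3K27Me3 list was longer in females, with 18270 regions on chr1 to chr19 against 14977 in males, and the H3K27Ac list was also longer, with 27785 against 25301. The lists held H3K27Ac at all 9 of the ES cell marker genes matched in the annotation, in both sexes. Of 12 fibroblast markers, 2 carried H3K27Ac in the BCF list and 6 in the BCM list. Col1a1, S100a4, Twist1 and Twist2 carried it in the BCM list only. No member of either direction had a TSS of these genes within 5 kb or lay over one. A BCM member (chr11:94787001-94791599) with 998 of 4599 bp in BCF H3K27Me3 lay 5939 bp upstream of Col1a1, its nearest gene. The part of fibroblast chromatin in the members was not tested.

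To show what kind of sequence carried opposite marks, 200 bases are printed for 3 BCF and 4 BCM members, taken from the 4 of each direction with the most bases under both marks. Each stretch is the centre of the overlap between the H3K27Ac region of one list and the H3K27Me3 region of the other. The letters are the plus strand of the C57BL/6 reference (NCBIM37, the assembly also called mm9), 5′ to 3′, and do not show the CAST/EiJ allele that each line also carried. Capitals mark CpG dinucleotides, the sites of DNA methylation and the units of CpG islands, where Polycomb is often found. The stretch at Rgs3 is chr4:62337400-62337599, inside the gene. The chr12 stretch, chr12:73956000-73956199, and the chr11 stretch, chr11:117478300-117478499, were intergenic, with 4930447C04Rik and Tnrc6c as the genes of the nearest protein-coding transcription start sites (TSSs). Those 3 carried H3K27Ac in the BCF list and H3K27Me3 in the BCM list.
Rgs3: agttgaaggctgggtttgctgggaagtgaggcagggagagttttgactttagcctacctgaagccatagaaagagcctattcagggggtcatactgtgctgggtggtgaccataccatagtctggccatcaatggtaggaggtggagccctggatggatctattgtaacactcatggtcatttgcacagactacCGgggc
4930447C04Rik: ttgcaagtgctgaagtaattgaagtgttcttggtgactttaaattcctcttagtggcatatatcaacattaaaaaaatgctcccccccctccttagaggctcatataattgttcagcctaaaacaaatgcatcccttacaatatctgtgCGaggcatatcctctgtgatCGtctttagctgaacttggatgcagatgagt
Tnrc6c: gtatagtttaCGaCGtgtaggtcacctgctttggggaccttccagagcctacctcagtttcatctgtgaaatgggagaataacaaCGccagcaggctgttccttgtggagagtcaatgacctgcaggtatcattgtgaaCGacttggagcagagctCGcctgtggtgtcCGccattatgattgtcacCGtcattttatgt
The next 4 carried H3K27Ac in the BCM list and H3K27Me3 in the BCF list. They are chr9:57128500-57128699, intergenic and nearest to 1700017B05Rik, chr11:101526900-101527099 at Arl4d, chr10:60256000-60256199 in an intron of Unc5b, and chr7:148525900-148526099 between the starts of Deaf1 and Eps8l2.
1700017B05Rik: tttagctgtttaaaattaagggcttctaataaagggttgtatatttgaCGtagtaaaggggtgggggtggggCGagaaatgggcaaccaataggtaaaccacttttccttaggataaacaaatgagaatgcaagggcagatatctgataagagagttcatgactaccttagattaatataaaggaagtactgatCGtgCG
Arl4d: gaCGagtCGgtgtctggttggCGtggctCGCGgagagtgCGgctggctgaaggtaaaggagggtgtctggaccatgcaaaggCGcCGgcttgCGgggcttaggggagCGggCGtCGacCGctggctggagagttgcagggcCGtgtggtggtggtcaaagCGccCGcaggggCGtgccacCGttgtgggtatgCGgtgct
Unc5b: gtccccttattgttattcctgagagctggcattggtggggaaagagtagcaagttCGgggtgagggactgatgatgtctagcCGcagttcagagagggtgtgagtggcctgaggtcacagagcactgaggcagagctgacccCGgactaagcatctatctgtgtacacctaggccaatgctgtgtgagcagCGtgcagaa
Eps8l2: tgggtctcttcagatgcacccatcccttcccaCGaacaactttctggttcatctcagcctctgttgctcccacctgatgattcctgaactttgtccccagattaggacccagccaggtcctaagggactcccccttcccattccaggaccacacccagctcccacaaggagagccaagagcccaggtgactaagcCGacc

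The Arl4d stretch was the one that resembled a CpG island, with 19 CpGs, a G+C content of 67.5% and an observed to expected CpG ratio of 0.96. The other 6 held between 1 and 7 CpGs in 200 bases. The Rgs3 stretch held 1, the 4930447C04Rik and Eps8l2 stretches 2 each, and the Tnrc6c stretch 7.

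How often did the marks exchange? Of the BCF-only H3K27Ac regions, 2.53% (95% interval 2.12 to 2.99) had H3K27Me3 in the BCM list only, beside 2.85% of all H3K27Ac regions of the BCF list. Among the 22568 BCF regions that were acetylated in both lists the share was 2.92% (2.71 to 3.15). Of the BCM-only H3K27Ac regions, 6.47% (5.56 to 7.47) had H3K27Me3 in the BCF list only, beside 5.7% of all H3K27Ac regions of the BCM list. Among the 22642 BCM regions acetylated in both lists it was 5.61% (5.31 to 5.92). In both directions the interval of the list-only regions overlapped that of the regions acetylated in both lists. Per region, H3K27Me3 in the opposite list only was thus about as frequent where acetylation was in one list as in both. The shares were not adjusted for width, and a wider region can meet H3K27Me3 more easily. With H3K27Me3 in neither list, the median width was 2599 bp for list-only and 3999 bp for shared regions of either list.

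The opposite arrangement, both marks confined to the same list, was counted for comparison. It was seen at 344 BCF-only H3K27Ac regions, or 6.59% (5.94 to 7.3), against the 132 with exchanged marks. In the BCM list it was seen at 93 regions, or 3.5% (2.83 to 4.27), against the 172 with exchanged marks. H3K27Me3 in the BCF list only was thus the more frequent state at the H3K27Ac regions of either sex, whether the acetylation was list-only or not. Most list-only H3K27Ac regions had H3K27Me3 in neither list, 79.7% (78.6 to 80.8) in BCF and 74.1% (72.4 to 75.8) in BCM.

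**Figure D1:**
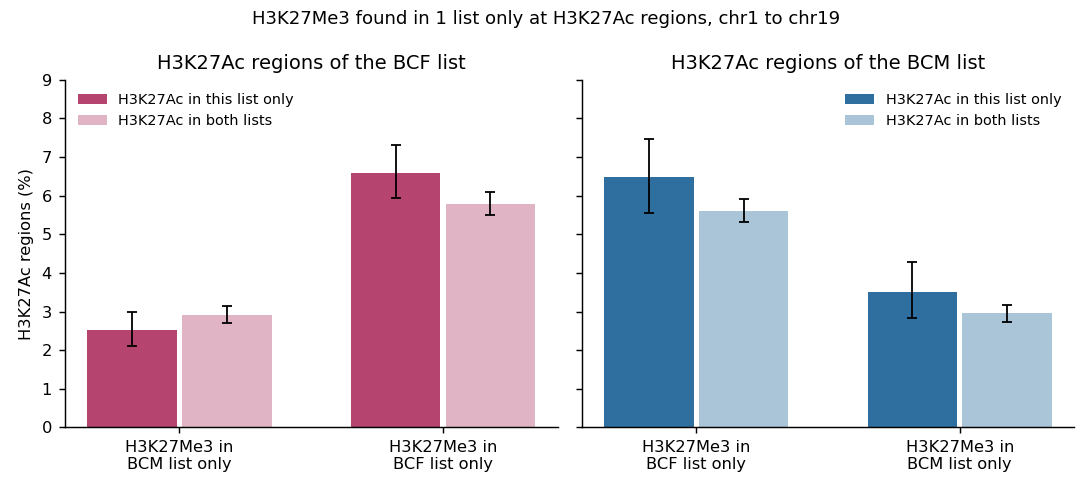
Percent of H3K27Ac regions on chr1 to chr19 with H3K27Me3 in 1 list only, for the BCF list (left) and the BCM list (right); dark bars are H3K27Ac regions of that list only, pale bars those acetylated in both lists, and error bars are exact binomial 95% intervals. The left pair of bars in each panel is the exchange, at 2.53% beside 2.92% in BCF and 6.47% beside 5.61% in BCM, and the H3K27Me3 state of the BCF list only is the taller in both panels.

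Read from the methylated side, 7216 H3K27Me3 regions were in the BCF list only, and 212 of these, or 2.94% (2.56 to 3.35), overlapped H3K27Ac of the BCM list only. H3K27Ac of the BCF list only overlapped 339 of them, or 4.7% (4.22 to 5.21). Of 3511 H3K27Me3 regions in the BCM list only, 142, or 4.04% (3.42 to 4.75), overlapped H3K27Ac of the BCF list only and 116, or 3.3% (2.74 to 3.95), H3K27Ac of the BCM list only. H3K27Me3 found in one sex only therefore met no H3K27Ac at all in most cases, 77.5% (76.5 to 78.4) and 77% (75.6 to 78.4) respectively.

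The members were short. The BCF members had a median width of 2799 bp (range 399 to 9199), beside 3599 bp for all BCF H3K27Ac regions, and the BCM members 2799 bp (399 to 9599), beside 3799 bp. List-only regions that were not members had medians of 2599 bp in both lists, so short width went with being in one list and not with the exchange itself. The overlapping H3K27Me3 regions were near the median width of their whole list and wider than its list-only regions. At BCF members the median was 4399 bp (999 to 45599), beside 4399 bp for the whole BCM list and 2999 bp for its list-only H3K27Me3. At BCM members it was 4499 bp (999 to 60999), beside 4199 bp for the whole BCF list and 2999 bp for its list-only H3K27Me3.

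How fully the opposite mark covered a member varied from a sliver to the whole. The BCF members had a median of 1199 bp (199 to 5799) in H3K27Me3 of the BCM list, and 34 of 132, or 25.8% (18.5 to 34.1), were covered from end to end. The BCM members had a median of 1599 bp (199 to 6399), and 60 of 172, or 34.9% (27.8 to 42.5), were wholly covered. At least 50% of the bases were covered in 63 BCF members, 47.7% (39 to 56.6), and 103 BCM members, 59.9% (52.1 to 67.3). At 93 BCF and 135 BCM members an overlapping H3K27Me3 region met no H3K27Me3 of the acetylated sex anywhere along its length. At the remaining members it met some outside the member, so that H3K27Me3 was found in both sexes and only one sex's interval reached the member.

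**Figure D2:**
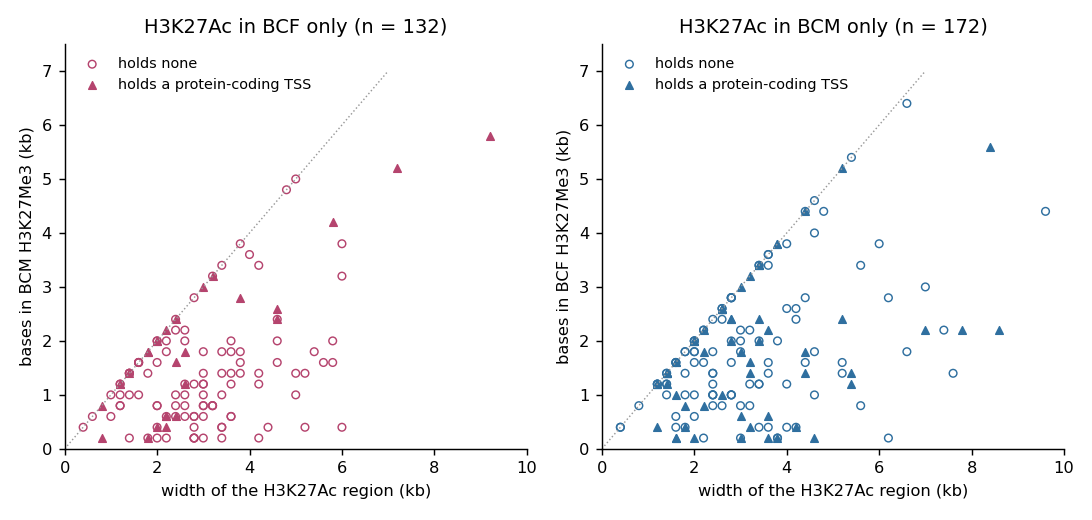
Width of each member (x axis, kb) against its bases in H3K27Me3 of the opposite list (y axis, kb), for the 132 BCF members and the 172 BCM members; filled triangles hold a protein-coding TSS, open circles hold none, and the dotted line marks complete coverage. Points on the line are the 34 and 60 members wholly covered, and members over 7 kb wide lie below it.

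The edge of the rule was sharp in position but not in kind. All intervals were laid on a grid of 200 bp, and 12 members of each direction touched H3K27Me3 by the smallest overlap of 199 bp. Among them were BCF regions near Rftn2 (chr1:55242601-55245999), Nppc (chr1:88543201-88547399) and Reck (chr4:43888201-43888999), and BCM regions near 1700001G17Rik (chr1:33726001-33727599), 1700026L06Rik (chr2:28554401-28556399) and Fam110a (chr2:151802201-151806799). Just outside, 4 list-only regions in each list missed H3K27Me3 of the opposite list by 1 bp. Those near Gm17323, Slc38a8 and Zfp36l1 in the BCF list and near Mrpl48, Qprt and Fbf1 in the BCM list were the first 3 of each. On the side of the member's own list, 6 BCF and 3 BCM members lay 1 bp from H3K27Me3 of their own list, and 1 BCM member, at Arl4d, lay 1 bp from H3K27Ac of the BCF list.

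Separation from the absent marks was wide at about 1 member in 3. The nearest H3K27Ac of the opposite list was over 10 kb away for 80 BCF and 86 BCM members, and the nearest H3K27Me3 of the own list was over 10 kb away for 61 and 103. Both held for 44 BCF members, 33.3% (25.4 to 42.1), and 54 BCM members, 31.4% (24.5 to 38.9). One or the other absent mark lay within 1 kb at 22 BCF and 24 BCM members.

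**Figure D3:**
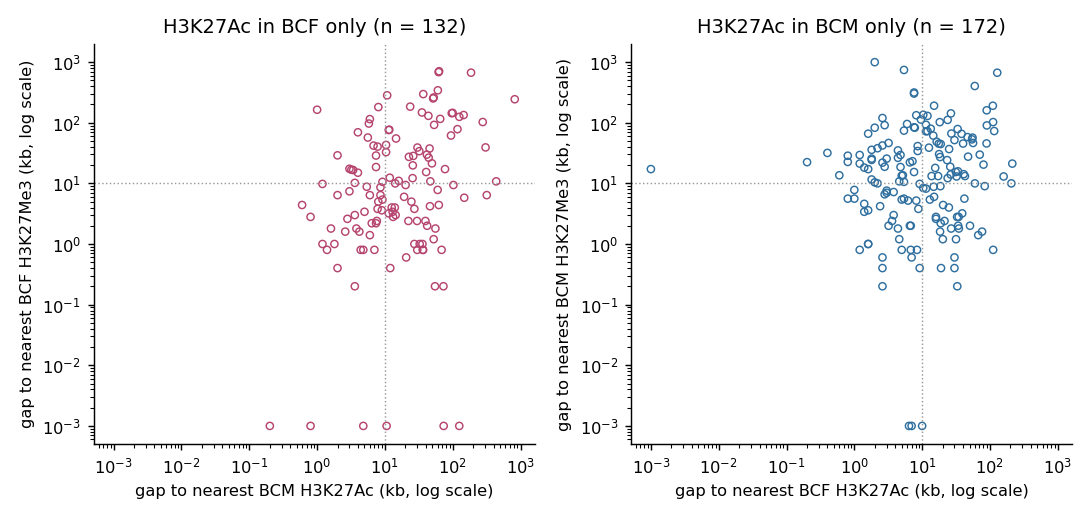
Gap from each member to the nearest H3K27Ac of the opposite list (x axis, kb, log scale) and to the nearest H3K27Me3 of its own list (y axis, kb, log scale), for 132 BCF members (left) and 172 BCM members (right), with dotted lines at 10 kb. The 44 and 54 points above and right of both lines are over 10 kb from both, and the points at the foot of the panels are the 6 and 3 members 1 bp from their own list's H3K27Me3.

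H3K4Me1 lists took no part in the rule, and at most members the mark was found in both sexes. It overlapped 113 of 132 BCF members in the BCF list, 85.6% (78.4 to 91.1), beside 75.7% of all BCF H3K27Ac regions. In the BCM list, where these regions carried H3K27Me3, it overlapped 109, or 82.6% (75 to 88.6), beside 75% of all. Of the BCM members, 154 carried it in the BCM list, 89.5% (84 to 93.7), beside 77.4% of all BCM H3K27Ac regions. In the BCF list it overlapped 155, or 90.1% (84.6 to 94.1), beside 76.3% of all. The members differed in this from the remaining list-only regions, of which 67.5% (66.2 to 68.8) in BCF and 68.8% (66.9 to 70.6) in BCM carried H3K4Me1 of their own list, and the intervals did not overlap. Regions acetylated in both lists with the same H3K27Me3 state carried H3K4Me1 of their own list at 93.2% (91 to 95) and 92.8% (91.3 to 94.2). These intervals overlapped those of the members, in BCF only at the edge. For H3K4Me1 in both lists, such BCF regions stood at 90.3% (87.8 to 92.5), above the BCF members at 79.5% (71.7 to 86.1). In BCM the values were 90.8% (89.1 to 92.3) and 84.3% (78 to 89.4), and the intervals overlapped. H3K4Me1 was in both lists at 105 BCF and 145 BCM members and in neither at 15 and 8.

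Position along genes was read next. A protein-coding TSS lay within 5 kb of 44 BCF members, 33.3% (25.4 to 42.1), beside 45.1% of all BCF H3K27Ac regions, and 28 members, or 21.2% (14.6 to 29.2), held one, beside 35.5%. For the BCM members it was 94, or 54.7% (46.9 to 62.2), beside 47.9% of all BCM H3K27Ac regions, and 65, or 37.8% (30.5 to 45.5), held one, beside 38.9%. The share of the whole list thus lay above the interval of the BCF members for both distances, and inside that of the BCM members. Neither reading held under every definition of a member. With at least 50% of the region in H3K27Me3 the shares within 5 kb were 44.4% (31.9 to 57.5) in BCF and 53.4% (43.3 to 63.3) in BCM, so the BCF interval held the share of the list and the directions overlapped. With reciprocal overlap of 50% for shared H3K27Ac they were 45.3% (38.9 to 51.9) and 61.3% (56.2 to 66.1), the BCM interval then lying above the share of its list. Against the other list-only regions both sets were richer in promoters, since only 12% (11.1 to 12.9) of those in BCF and 20.8% (19.2 to 22.5) in BCM held a TSS. Against regions acetylated in both lists with the same H3K27Me3 state both sets were poorer in promoters. Of those, 51.4% (47.5 to 55.2) in BCF and 59.7% (56.9 to 62.4) in BCM held a TSS. They were also wider than the members, with a median of 4399 bp in both lists. Of the BCF members 71 were intergenic, 16 overlapped an exon away from a TSS and 17 lay in an intron. Of the BCM members 65 were intergenic, 19 exonic and 23 intronic.

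**Figure D4:**
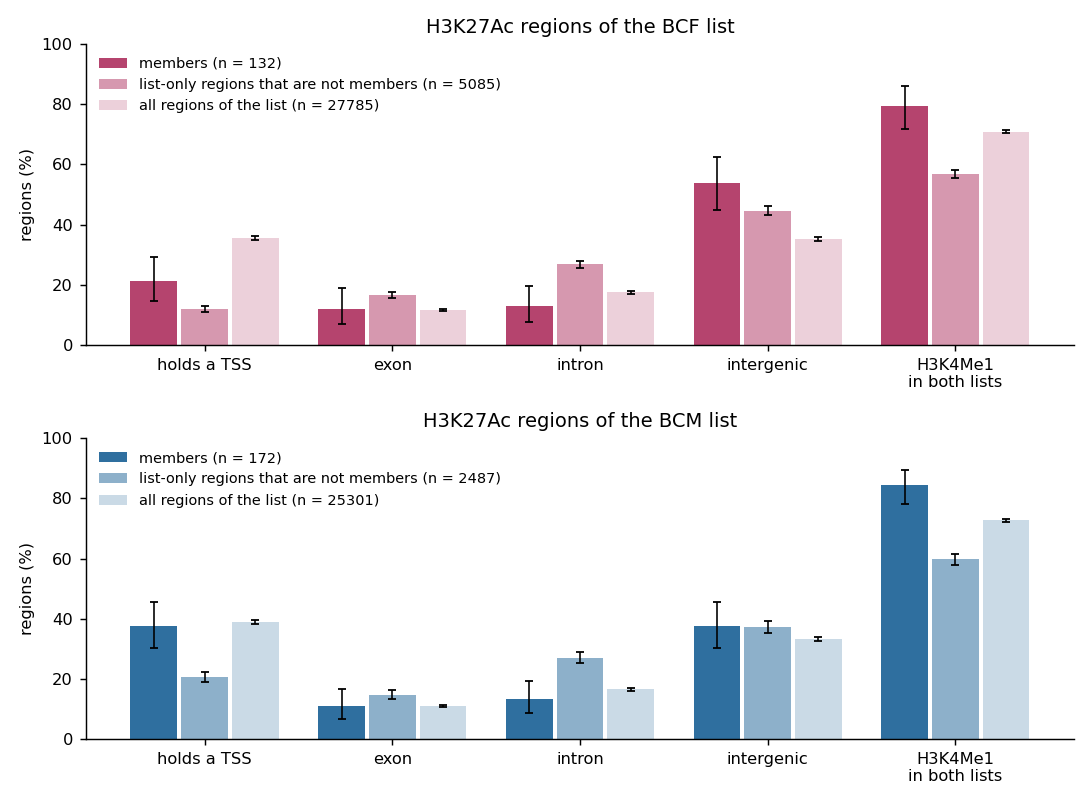
Percent of H3K27Ac regions (y axis) that hold a protein-coding TSS, lie in an exon, in an intron or between genes, or overlap H3K4Me1 in both lists, for the BCF list (top) and the BCM list (bottom); bars from dark to pale are the members, the other list-only regions and all regions of the list, with exact binomial 95% intervals. Members hold a TSS at 21.2% in BCF and 37.8% in BCM, and carry H3K4Me1 in both lists at 79.5% and 84.3%.

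The BCF member with the most bases under both marks was at Rgs3, a GTPase-activating regulator of G protein signalling. The region, chr4:62333601-62342799, was 9199 bp long and 5799 bp of it lay in BCM H3K27Me3. It held internal starts of Rgs3, 114.2 kb from the outermost one, and the nearest H3K27Me3 of the BCF list was 97001 bp away. The next was at Coro2b, a coronin that binds actin, where 5199 of 7199 bp (chr9:62366401-62373599) were in BCM H3K27Me3. This too was an internal start, 16.6 kb from the outermost. At Atp2b2, a calcium pump of the plasma membrane, 4199 of 5799 bp (chr6:113835801-113841599) were covered, and H3K27Ac of the BCM list was 145001 bp away. All 3 carried H3K4Me1 in both lists.

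At other BCF members the opposite mark covered a gene's own first start from end to end. The start of Ppp1r1a, an inhibitor of protein phosphatase 1, lay in a 3199 bp region (chr15:103366001-103369199) wholly in BCM H3K27Me3. That of Ehhadh, an enzyme of peroxisomal fatty acid oxidation, lay in 2999 bp wholly covered, but BCF H3K27Me3 began 1 bp away. The same end-to-end cover was found at Camkv, a kinase-like protein of neurons, over 2399 bp, and at Papolb, a poly(A) polymerase of testis, over 1799 bp. At Camkv, BCF H3K27Me3 lay 401 bp from the member, and the covering BCM region met BCF H3K27Me3 outside it. At Dmc1, the recombinase of meiosis, 1799 of 2599 bp were covered. Cpxm1 (2799 bp), Arhgap22 (2599 bp), Pdzrn4 (2399 bp), Cgnl1 (2199 bp), Tmem90b with C530025M09Rik (1999 bp) and Gm3264 (1999 bp) were also among the TSS members with the most covered bases. Not all of these were first starts or wholly covered. Cover was partial at Cpxm1 (73.7%), Arhgap22 (56.5%) and Pdzrn4 (52.2%). The starts held at Arhgap22 and Gm3264 were internal, 105.7 kb and 114.7 kb from the outermost. Gm3264 belongs to a group of near-identical genes, where short reads cannot be placed with certainty. Of the 28 BCF members at a TSS, 18 held the outermost start of a gene and 10 only internal ones.

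Wide overlaps were also found among BCF members that held no TSS. The chr12 region nearest to 4930447C04Rik, 48659 bp from its TSS, lay whole, over 4999 bp (chr12:73953601-73958599), in BCM H3K27Me3, with BCF H3K27Me3 801 bp away. The 4799 bp region 34804 bp upstream of Tnrc6c, a GW182 protein of microRNA silencing, was also covered whole (chr11:117476001-117480799), and its nearest BCF H3K27Me3 was 29001 bp away. A 3799 bp region over an exon of Cdh16, a cadherin of kidney epithelium, was covered whole (chr8:107124801-107128599). An intronic region of Ikzf3, a zinc finger factor of lymphocytes, had 3399 of 4199 bp covered and lay 4518 bp from its TSS. The remaining regions of the 10 most covered were intergenic and nearest to Zfp936 (3799 bp), Map3k1 (3599 bp) and Gm13139 (3399 bp). The Gm13139 region carried no H3K4Me1 in either list.

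The BCM member with the most bases under both marks was intergenic, 14795 bp upstream of 1700017B05Rik, with 6399 of 6599 bp (chr9:57125201-57131799) in BCF H3K27Me3. The next was at the only start of Arl4d, a small GTPase of the ARF family, with 5599 of 8399 bp (chr11:101522401-101530799). A neighbouring H3K27Ac region that both lists held ended 1 bp from it in the BCF list. In an intron of Unc5b, a netrin receptor of axon guidance, 5399 of 5399 bp were covered (chr10:60253401-60258799). A region over the divergent starts of Deaf1, a transcription factor, and Eps8l2, a relative of the actin regulator EPS8, was covered over all of its 5199 bp (chr7:148523401-148528599), and the nearest BCM H3K27Me3 was 34201 bp away. An exonic region of Celf5, an RNA-binding protein, lay whole, over 4599 bp, in a single BCF H3K27Me3 region of 60999 bp.

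**Figure D5:**
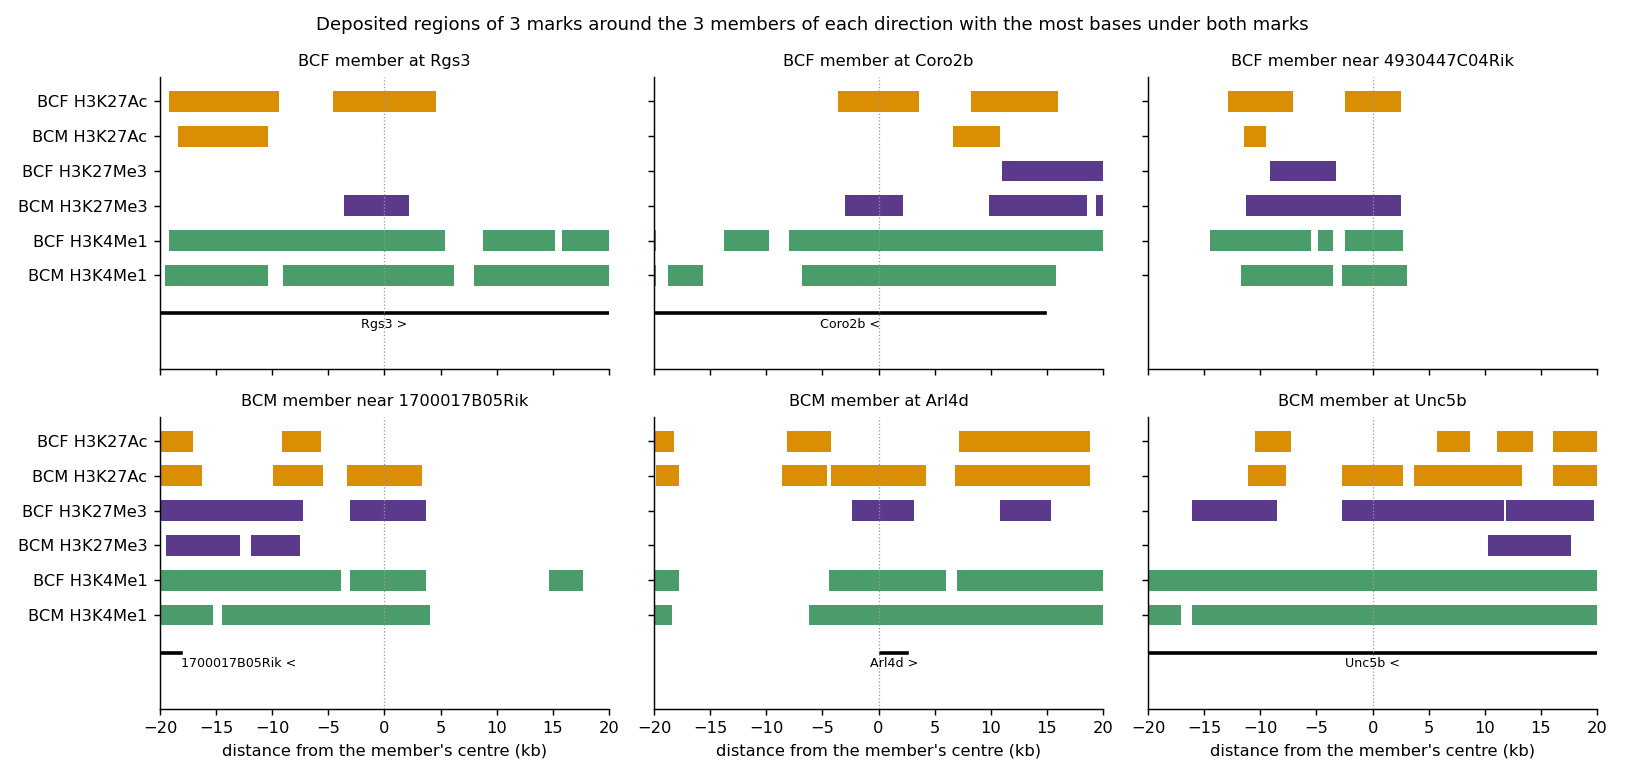
Deposited regions of H3K27Ac, H3K27Me3 and H3K4Me1 in the BCF and BCM lists within 20 kb of the centre (x axis, distance in kb) of the 3 BCF members (top) and the 3 BCM members (bottom) with the most bases under both marks; black lines are protein-coding genes with their direction. At the dotted centre H3K27Ac and H3K27Me3 are in opposite lists while H3K4Me1 is in both, and at Arl4d the BCF H3K27Ac ends beside the member.

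Among BCM members at a TSS, complete coverage was found at Pga5, a pepsinogen, and Cyba, a subunit of NADPH oxidase, both over 3799 bp. It was also found at Zfp316, a zinc finger gene, at Tnk1, a tyrosine kinase, and at Ehbp1l1, each over 3399 bp. Sdk2, a cell adhesion protein of synapses, followed with 3199 bp at an internal start 256.6 kb from the outermost. BC022687 had 2999 bp. Speg, a kinase of striated muscle, Cit, the citron kinase of cytokinesis, Limd1, a LIM domain protein, Them4 and Tmem120b each had 2599 bp, and in all 5 the whole region was covered. The starts held at Tnk1, Speg, Cit and Tmem120b were internal as well, 3.1, 24.8, 80.4 and 7.9 kb from the outermost. 1700009P17Rik (4399 bp, whole) completed the 15 TSS members with the most covered bases. Of the 65 BCM members at a TSS, 54 held the outermost start of a gene and 11 only internal ones, and 28 of the 65 were wholly covered, beside 12 of the 28 in BCF.

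The most covered BCM members away from a TSS also included an intronic region of Fam178b (4399 bp, whole), which touched on BCM H3K27Me3 at 1 bp. Intergenic regions nearest to Ptpn1, a tyrosine phosphatase, Ccnl1, a cyclin of RNA processing, and Thumpd3 had 4399, 4399 and 3999 bp covered. The Ptpn1 region was the widest member, at 9599 bp. These 3 lay between 19020 and 95158 bp from their TSS.

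Members were not found at the genes of the developmental and marker lists examined. None of 10 gene lists had a gene with its TSS within 5 kb of a member or its body under one, in either direction. The lists covered pluripotency, mesoderm and endoderm, cardiac, neural, germline and imprinted genes, ES cell and fibroblast markers, and the regulators that the study tabulated as higher in XX or in XY ES cells. Other genes that the study mentions were not part of these lists, and some of them had members. The DNA methyltransferase Dnmt3a had a BCM member over an exon (chr12:3913401-3915399) with 999 of 1999 bp in BCF H3K27Me3. Ikzf3 had the intronic BCF member given above, with 3399 of 4199 bp in BCM H3K27Me3. The paper lists Ikzf3 among factors that were sex-biased in adult hearts and had Prdm14 at or near the promoter in ES cells. The tabulated regulators had been picked on RNA levels of ES lines from the same crosses. Few H3K27Ac regions lie at such genes in any case, between 0.0072% and 0.221% of all regions of a list, so a count of 0 of 132 or of 172 members lies near the background.

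By gene family, members were scattered. In BCF they met 1 gene of the Wnt, Fgf, Bmp, Notch and hedgehog pathways (Fzd9, a Wnt receptor), 2 axon guidance genes (Plxna2, a plexin, and Sema4d, a semaphorin), the ion channels Grik4 and Kcnh2, 1 zinc finger gene (Zfp423) and 1 cadherin (Cdh16). In BCM they met 1 homeobox gene (Gbx1), the TGF-beta related Tgfb1i1, 3 axon guidance genes (Epha1, Sema3f and Unc5b), 2 mitochondrial carriers (Slc25a29 and Slc25a42) and 3 zinc finger genes (Zfp316, Zfp324 and Zfp707). Members at axon guidance genes were 1.52% of BCF and 1.74% of BCM members, beside 0.396% and 0.407% of all H3K27Ac regions, on counts of 2 and 3. Families were recognised by symbol, and the search missed some genes. Outside it, a BCF member in an intron of the homeobox gene Pknox2 was wholly covered over 1399 bp. A BCM member over an exon of the ion channel gene P2rx4 was wholly covered over 1599 bp, and another held a TSS of the channel gene Tpcn1. Of the Sox, Fox, T-box, Gata and Klf families 0 genes were met in either direction, beside 0.364% of all H3K27Ac regions in both lists. Of the bHLH symbols searched 0 were met, beside 0.18% of all BCF and 0.166% of all BCM regions, but a BCF member over an exon of Npas2, a bHLH-PAS factor outside that search, was wholly covered over 1399 bp.

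A few more genes were picked after their values were seen. Among them were BCM members at Cald1, an actin-binding protein of smooth muscle and fibroblasts, Cav2, a caveolin, and Mfap4, a microfibril protein. They had 2199, 1799 and 2199 bp in BCF H3K27Me3, or 28.2%, 81.8% and 25.6% of each region. The starts held at Cald1 were internal, 147.5 kb from the outermost. The members at Cald1 and Cav2 carried H3K4Me1 in neither list. The higher count of fibroblast markers with H3K27Ac in the BCM list, 6 of 12 beside 2 of 12, stands beside these values, and its part in them was not tested. A BCM member in an intron of Runx1, a factor of blood formation, was wholly covered over 2799 bp. One at a start of Lin28b, an RNA-binding protein that blocks let-7 maturation, was covered over 199 bp only.

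The members were spread over every autosome. BCF members made up between 0.111% and 0.768% of a chromosome's H3K27Ac regions and BCM members between 0.381% and 1.44%. Within 100 kb of each other lay 1 pair of BCF members and 7 pairs of BCM members, and no stretch with such gaps held 3 or more. At gaps just over that distance, 4 BCM members on chr19, nearest to Tsga10ip, Snx32, Kat5 and Ehbp1l1, lay between positions 5397801 and 5726599. In 5 places members of opposite direction lay within 100 kb. On chr8 the BCF member over Cdh16 (chr8:107124801-107128599) lay 25801 bp from a BCM member nearest to Rrad, a Ras-related GTPase of muscle (chr8:107154401-107157599), and on chr4 a BCF member nearest to E2f2 lay 38601 bp from a BCM member nearest to Asap3. Of the 75 genes at BCF members and 144 at BCM members, 3 were shared (Dnahc2, Gm20388 and Gm5134).

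Base composition was read in the 600 bp around the midpoint of every H3K27Ac region. The median G+C content was 49.7% in BCF members, beside 48% of all BCF regions, and 51.3% in BCM members, beside 48.5% of all BCM regions. The median number of CpGs was 10 in both directions, beside 9 in both whole lists. A CpG-rich window, with at least 50% G+C and an observed to expected ratio of at least 0.6, was found at 18 BCF members, 13.6%, beside 15.9% of all, and at 20 BCM members, 11.6%, beside 17%. At a TSS it was found at 13 of 28 BCF members and 18 of 65 BCM members, 46.4% (27.5 to 66.1) and 27.7% (17.3 to 40.2), beside 38.3% and 38.2% of all H3K27Ac regions at a TSS. Most members of either direction were thus not at CpG-rich sequence, and the shares at a TSS lay within the members' intervals of those of all regions.

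In the same windows 10 short motifs were searched on both strands, as plain letters without mismatches. In BCF members AAGGTCA, bound by Esrrb, was present in 25 of 132 windows, 18.9% (12.6 to 26.7), beside 11.4% of all BCF H3K27Ac regions and 12.8% of the other BCF-only regions, the latter inside the interval. AAGGTCA was present in 21.2% (13.8 to 30.3) of BCF members that held no TSS, beside 12.3% of all such regions, outside the interval. Of those that held one, 10.7% (2.27 to 28.2) had it, beside 9.71%, inside the interval. GGTCTCT, the core of the Prdm14 motif, was present in 22, or 16.7% (10.7 to 24.1), beside 10.4%. Among the other BCF-only regions it was present in 10.7%, level with the lower end of that interval. Split by position, it was present in 16.3% (9.82 to 24.9) of BCF members that held no TSS, beside 10.3% of all such regions, and in 17.9% (6.06 to 36.9) of those that held one, beside 10.7%, both inside the interval. In BCM members these stood at 12.8% (8.19 to 18.7) beside 11.2%, and at 10.5% (6.32 to 16) beside 10.5%. GGAATGT, bound by TEAD factors, was present in 28 of 172 BCM members, 16.3% (11.1 to 22.7), beside 8.73% of all BCM H3K27Ac regions and 9.57% of the other BCM-only regions. It was present in 19.6% (12.6 to 28.4) of those that held no TSS, beside 10.2%, and in 10.8% (4.44 to 20.9) of those that held one, beside 6.38%. The share of all regions lay outside the members' interval where no TSS was held, and inside it where one was. GGAATGT was found in 7.58% (3.69 to 13.5) of BCF members, beside 8.71%. ATGCAAA, the octamer that Oct4 binds, was present in 6.98% (3.66 to 11.9) of BCM members beside 10.3%, and in 13.6% (8.29 to 20.7) of BCF members beside 10.4%.

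Over the 10 motifs and both directions, the share of all regions lay outside the members' interval in 3 of 20 cases, those of Esrrb and Prdm14 in BCF and of TEAD in BCM. The intervals were not adjusted for that number of comparisons. The other 6 motifs were CACCTG (47% and 47.7%, beside 43.8% and 43.6%), TGANTCA of AP-1 (17.4% and 16.9%, beside 16.6% and 16.9%), AGATAAG of GATA factors (6.06% and 5.23%, beside 6.12% and 6.02%), CTTTGAT of Tcf and Lef (8.33% and 9.3%, beside 7.92% and 7.5%), ACAATGG of Sox factors (9.09% and 4.07%, beside 7.66% and 7.17%) and GGGTGTG of Klf factors (19.7% and 20.9%, beside 14.3% and 15.2%), for BCF and BCM members in turn. A match is only a run of letters, and neither binding nor its consequence was measured.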

How the data were processed

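ChIP-seq of H3K27Ac, H3K27Me3 and H3K4Me1 was made in 2 male and 2 female ES cell lines, with input and IgG controls. Reads were aligned by the authors to mm9 with Bowtie2 and compared with Bedtools, while their notes to the archive list Bowtie, deepTools and the same build. The deposited files are 6 lists of intervals (1 per sex and mark, 3 columns, no score), on a grid of 200 bp. The sources used here give no peak caller, threshold or pooling of lines.

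The rule was applied with a minimum overlap of 1 bp in Python 3.11.15 (numpy 2.4.6, scipy 1.17.1), tested on simulated lists, and gave the same 132 and 172 members with Bedtools 2.31.1. TSSs, exons and bodies of 21418 protein-coding genes came from GENCODE M1, and bases from NCBIM37. Coordinates are 1-based. Shares carry exact binomial 95% intervals, and no test was run because each list is a single observation. Genes were named by rule: the 15 members per direction at a TSS and the 10 anywhere with the most bases in H3K27Me3 of the opposite list, the 3 with the fewest and the 3 nearest misses, and members at listed genes. The members, gene lists and rules were chosen with earlier results of these data known. Some genes and sequences that the rule selects are not reported here.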

Additional observations from a re-analysis of the deposited data

How the results depend on the processing

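Requiring 50% reciprocal overlap before H3K27Ac counted as shared raised the numbers to 236 BCF and 390 BCM members. At least 50% of the region in H3K27Me3 lowered them to 63 and 103, with exchange shares of 1.21% and 3.87% and same-list shares of 4.62% and 1.88%. The widest 50% of each list left 78 BCF members and same-list shares of 4.56% and 1.82%. An H3K27Me3 region that was itself list-only gave exchange shares of 1.78% and 5.08% and same-list shares of 5.33% and 2.75%. Equal numbers of regions were reached by dropping the narrowest regions of the longer BCF lists. The exchange shares were then 3.12% (BCF) and 4.64% (BCM), and the BCF same-list share was 5.69%. The gap between the exchange shares narrowed, but BCM-only H3K27Ac regions rose from 2659 to 4311, so list length and width changed together. With no H3K27Me3 of the second list within 1 kb the BCF same-list share was 5.88%. The BCF share near a TSS was 45.3% (reciprocal overlap), 44.4% (50% cover), 43.6% (widest 50%), 23.5% (within 2 kb) and 42.4% (TSSs of all genes). The BCM share was 62.5% (equal numbers), 65.9% (widest 50%) and 45.3% (within 2 kb). H3K4Me1 of the own list overlapped 73.1% of BCF members in the widest 50%, and 83.5% (equal numbers) and 79% (widest 50%) of BCM members. The other 44 values moved by less than 1.5 times for numbers, or stayed inside the 95% interval for shares. The cause of these shifts was not tested.

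The exchange shares of BCM stayed above those of BCF under all 7 alternatives to the rule. That order was not particular to list-only regions. Under the main rule the share over all H3K27Ac regions was 5.7% in BCM beside 2.85% in BCF, and it was not counted under the alternatives. No paired analysis was possible because the lists carry no replicate numbers and the results come from no test. With 1 list per sex and mark, differences between lines, between antibody batches, in depth and in calling cannot be told apart from sex. A region absent from a list is one that was not called, and read depth is not given in the lists.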

Other observations

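The X chromosome lay outside the rule, and the same arrangement was counted there by itself. Of 272 H3K27Ac regions of the BCF list only on chrX, 0 had H3K27Me3 in the BCM list only and 6 had it in the BCF list only. Of 64 of the BCM list only, 5 had H3K27Me3 in the BCF list only and 2 in the BCM list only.

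Of the 5 BCM regions, 3 lay close together in the X inactivation centre. A 1599 bp region (chrX:100688001-100689599) held a TSS of Enox, a long non-coding RNA also called Jpx, and was wholly in BCF H3K27Me3. A 3599 bp region (chrX:100811401-100814999) held a TSS of B230206F22Rik, a long non-coding RNA also called Ftx, and was covered whole as well. An 8799 bp region (chrX:100841601-100850399), 1535 bp from the pseudogene Gm14874, had 5199 bp in BCF H3K27Me3. None of the 3 overlapped H3K4Me1 in either list. Both RNAs are known as neighbours and regulators of Xist. These regions were singled out after their positions were seen, and with 1 list per sex no test was possible.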
